A study of Mus musculus with 8 samples.

Results

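The 29 genes described here encode the enzymes and regulators of cholesterol and fatty acid synthesis. They comprise 17 enzymes of the sterol pathway, 4 regulators that set its transcription, and 8 enzymes of fatty acid synthesis, elongation and desaturation. They were taken by gene name from a table of 54532 genes, by a rule that uses names and no measured value. The list of names was itself chosen with earlier results of these data known. All 29 were found, and all 29 passed the filter on low counts that left 18238 genes for testing.

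The libraries came from orthotopic pancreatic tumours that grew in C57BL/6 mice after implantation of KPC, a cell line of mouse pancreatic cancer. The TLQP21 group received the peptide of that name, a fragment of the neurosecretory protein VGF. The Saline group received saline, and both were treated for 2 weeks and gave 4 libraries. The labels give no age and do not say how many animals stood behind the libraries, whether tumours were pooled, or how much of the host pancreas each tumour carried. The samples are labelled as pancreatic cancer cells, but RNA was taken from harvested tumours, which also hold stromal, immune and adjacent pancreatic cells. In such bulk samples, fewer cells of a type and less RNA per cell cannot be told apart.

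Cells build cholesterol from acetyl-CoA through the mevalonate pathway, which first makes isoprenoid units, then joins them to squalene and closes squalene into sterols. Fatty acid synthesis starts from the same acetyl-CoA, makes palmitate, and then lengthens and desaturates it. The transcription factors SREBP1 and SREBP2, carried by SCAP and held in the endoplasmic reticulum by INSIG proteins when sterols are plentiful, activate both sets of genes, and SREBP2 acts mainly on the sterol enzymes. Tumour cells often depend on these pathways for membranes, and the pancreas, liver and fat also express them.

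SREBPs act at promoters together with the factor NF-Y, so the promoters of the members were searched for 3 motifs on both strands: the sterol regulatory element written TCACNCCAC, the NF-Y box CCAAT and the E-box CACGTG, none of which overlaps another as printed here. RefSeq (GRCm38.p6) gave promoters of 250 bases before to 50 after the start for 24 of the 29 genes, 31 promoters in all, since some genes have several starts. The NF-Y box was found in 22 of them (71.0%), against 37.2% of the 15668 promoters of tested genes and 37.4% of all 32851 promoters. The E-box was found in 6 (19.4%), against 9.18% of promoters of tested genes and 7.15% of all. The sterol regulatory element was found in 1 (3.23%), that of Hmgcs1, against 1.16% and 1.24%. A match is a description of the letters, not evidence of binding, and no binding was measured. The 250 bases before the start are shown for the 3 sterol enzymes whose promoters held the most matches, a choice in which Hsd17b7 tied with Nsdhl at 4 and was taken by alphabetical order. They run 5′ to 3′ in the direction of the gene, with the motifs in capitals, and the NF-Y box reads ATTGG where it lies on the other strand. Hmgcs1 spans chr13:119690101-119690350 on the plus strand, Mvk chr5:114444019-114444268 on the plus strand and Hsd17b7 chr1:169969206-169969455 on the minus strand.
Hmgcs1: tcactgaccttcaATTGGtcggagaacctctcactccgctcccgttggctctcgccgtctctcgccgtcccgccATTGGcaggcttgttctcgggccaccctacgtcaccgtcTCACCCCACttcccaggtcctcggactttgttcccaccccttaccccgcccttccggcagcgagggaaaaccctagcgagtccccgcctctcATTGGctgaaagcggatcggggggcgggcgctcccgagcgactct
Mvk: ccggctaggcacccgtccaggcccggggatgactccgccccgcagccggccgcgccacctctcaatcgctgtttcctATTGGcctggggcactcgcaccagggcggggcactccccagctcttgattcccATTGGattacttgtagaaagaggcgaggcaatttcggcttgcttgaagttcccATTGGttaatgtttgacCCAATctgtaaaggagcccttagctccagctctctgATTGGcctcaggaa
Hsd17b7: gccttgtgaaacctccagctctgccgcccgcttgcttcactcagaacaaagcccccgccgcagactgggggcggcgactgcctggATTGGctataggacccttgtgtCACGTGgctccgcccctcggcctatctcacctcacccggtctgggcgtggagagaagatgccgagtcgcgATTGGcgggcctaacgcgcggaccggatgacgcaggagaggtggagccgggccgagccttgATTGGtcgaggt
In Hmgcs1 the sterol regulatory element began 137 bases before the start, with NF-Y boxes at 237, 176 and 45 bases before it. Mvk carried 5 NF-Y boxes and no other motif in this stretch, and Hsd17b7 carried 3 NF-Y boxes and an E-box that began 143 bases before the start. The expression values of these 3 genes follow with their roles.

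Summed gene counts ran from 29027480 to 33536087 in TLQP21 libraries and from 28358465 to 28963457 in Saline libraries. The 29 genes together took 0.269 to 0.323% of counts in TLQP21 libraries and 0.275 to 0.299% in Saline libraries. Apart from Fdps, each was covered by at least 326 reads in every library. Epithelial cells were represented: all 10 epithelial and ductal markers were measured and together took 0.729 to 0.782% of counts in TLQP21 libraries and 0.632 to 0.725% in Saline libraries. The most abundant marker of the epithelial list, Krt8, had 1525 to 1702 CPM in TLQP21 and 1462 to 1567 CPM in Saline, that of the acinar list, Ctrb1, had 3303 to 9954 CPM in TLQP21 and 3983 to 17490 CPM in Saline, and that of the fibroblast list, Col3a1, had 2236 to 3329 CPM in TLQP21 and 2177 to 4488 CPM in Saline. Libraries 1 and 2 of each group carried Xist and libraries 3 and 4 carried Y-linked transcripts, so each treatment held 2 libraries of each kind.

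Levels per gene length, as TPM (counts divided by the deposited gene length and scaled to an equal total in each library), spanned 2 orders of magnitude. The stearoyl-CoA desaturase Scd2 was highest at 447 ± 62.0 TPM in TLQP21 and 417 ± 43.9 TPM in Saline (SD, n = 4 each). The lanosterol demethylase Cyp51 followed at 175 ± 35.1 TPM in TLQP21 and 150.4 ± 24.0 TPM in Saline, and the citrate-cleaving enzyme Acly at 155 ± 13.3 TPM in TLQP21 and 136 ± 17.2 TPM in Saline. Cyp51 and Acly, neighbours in this order, were not separated beyond their spread, whereas Scd2 stood above both in each group. The malic enzyme Me1, which supplies NADPH, averaged 101 TPM over the 8 libraries, Srebf2 97.2, Srebf1 77.9 and Fasn 72.5 TPM. At the low end lay Acaca with 7.22 TPM, Acss2 with 4.31 and Fdps with 3.23 TPM. The order rests on the deposited lengths, which were 17074 bases for Acaca and 10163 for Acss2. Whether these lengths match the transcripts present was not tested. The value of Fdps is uncertain, because 26.7% of its exonic bases are shared with the same-strand gene Gm43738. That gene was listed with 0 reads, and how shared reads were counted is not given in the sources used here.

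**Figure D1:**
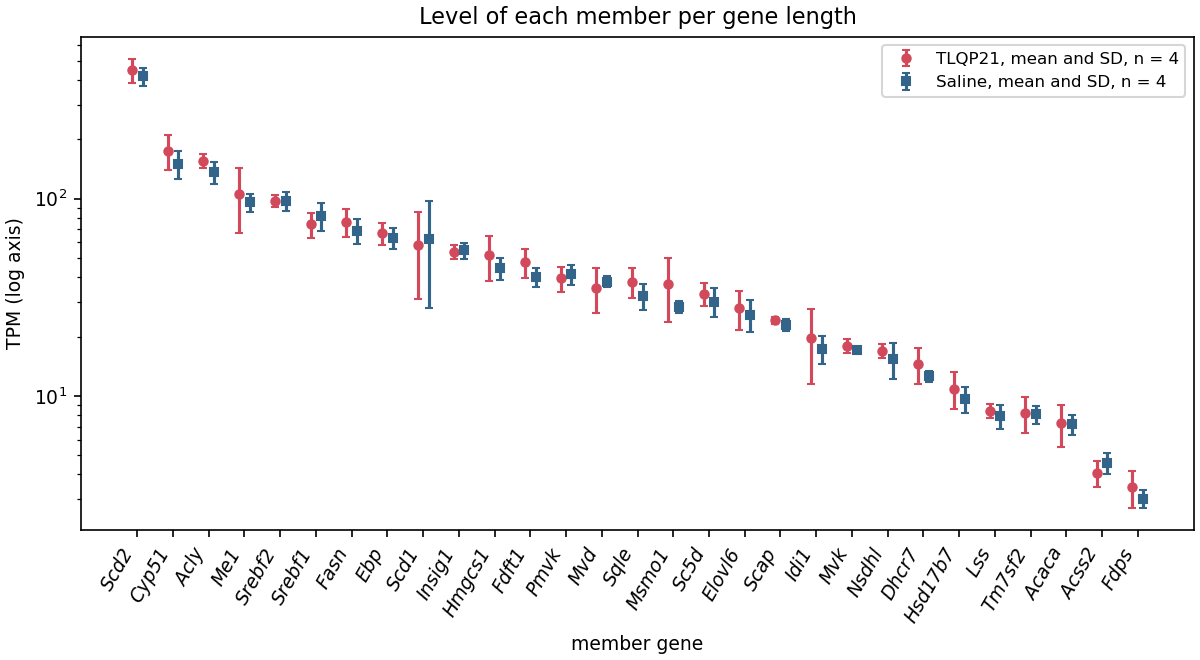
Mean level of each of the 29 genes in TPM (log axis), ordered by the mean over all 8 libraries, with circles for TLQP21 and squares for Saline and bars of 1 SD (n = 4 per group). The bars of the 2 treatments overlap for every gene, and Scd1 and Me1 have wide bars in at least 1 treatment.

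None of the 29 genes passed the test of TLQP21 against Saline (edgeR adjusted p = 0.9999 for each), and the same held across the transcriptome, where 0% of 18238 genes were called higher and 0% lower. DESeq2 called 4 genes and limma's voom with sample weights 1, and neither called any of the 29. At an unadjusted p under 0.05, 0 of the 29 were found, against 3.06% of all genes tested. In 0 of the 29 were the 4 TLQP21 libraries clear of the 4 Saline libraries, against 1.66% of all genes. Log2 fold changes, TLQP21 over Saline, lay between -0.26 for Acss2 and 0.30 for Msmo1. They were above 0 in 19 of the 29 and in 50.6% of all genes, below 0 in 10 of the 29 and in 49.4% of all genes, with a median of 0.03 for the 29 and 0.002 for all genes. The intervals limit what these libraries could hide: the 95% interval lay within 2-fold in both directions for 28 of the 29, against 79.5% of all genes, and within 1.5-fold for 26. The 3 that reached past 1.5-fold were Mvd, Msmo1 and Scd1.

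**Figure D2:**
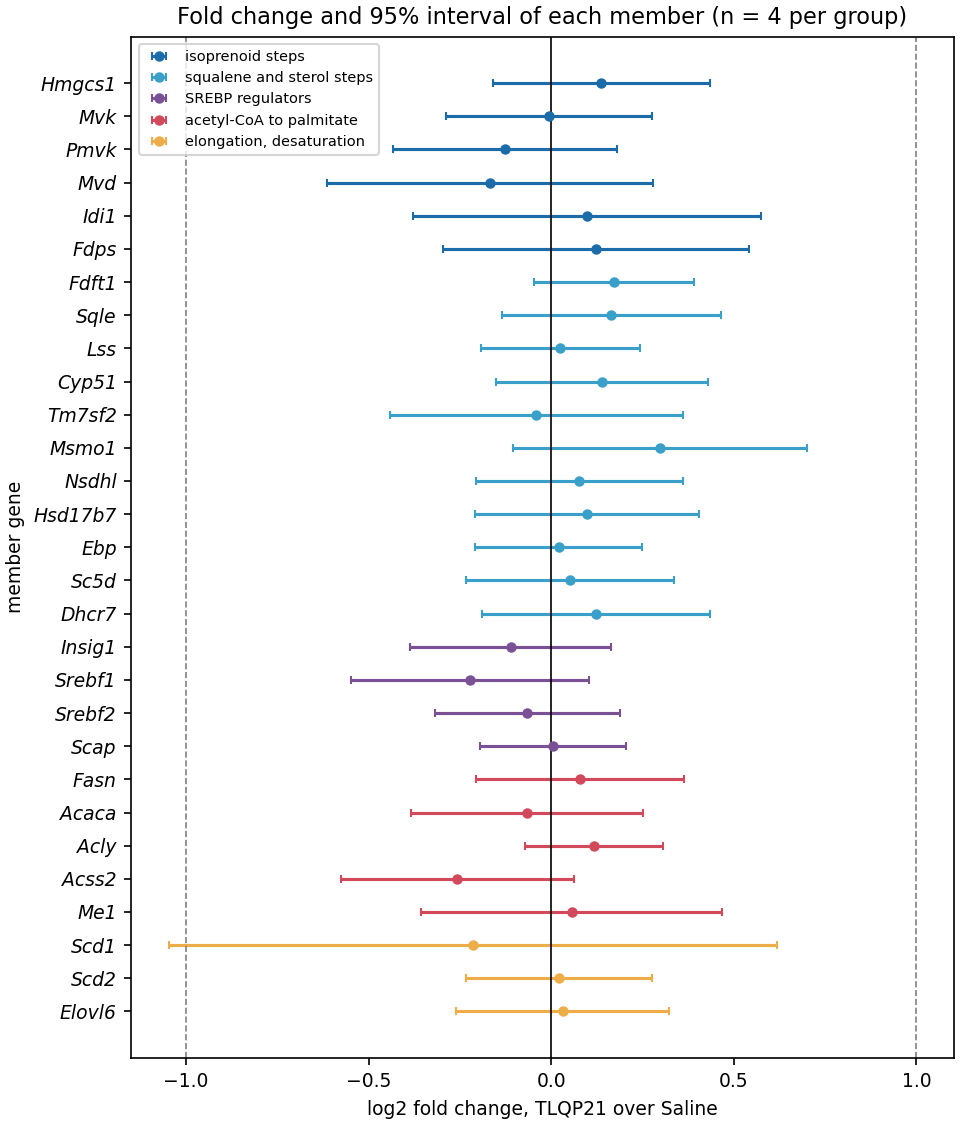
Log2 fold change of each of the 29 genes, TLQP21 over Saline, with its 95% interval from the edgeR fit (4 libraries per group); colours mark the roles and dashed lines a 2-fold difference. Every interval crosses 0, and that of Scd1 alone passes the 2-fold line.

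Among the 6 enzymes of the isoprenoid steps, 0 were called, with 3 above 0 and 3 below. Hmgcs1, the synthase that makes HMG-CoA, had 63.1, 70.4, 74.9 and 100.4 CPM (counts scaled to an equal library total) in TLQP21 libraries 1 to 4, against 73.5, 68.8, 71.5 and 66.99 CPM in Saline libraries 1 to 4. TLQP21 4 lay above and TLQP21 1 below all other libraries, and the groups overlapped. The log2 fold change was 0.14 (SE 0.13) and became -0.02 without TLQP21 4. Pmvk, the phosphomevalonate kinase, had 25.6, 24.4, 22.4 and 16.8 CPM in TLQP21, against 25.97, 25.1, 22.9 and 23.4 CPM in Saline, a log2 fold change of -0.13 (SE 0.14) that was -0.015 without TLQP21 4. Mvd, the decarboxylase that makes isopentenyl diphosphate, had 27.1, 23.98, 22.9 and 12.8 CPM in TLQP21, against 24.1, 25.3, 23.4 and 24.7 CPM in Saline. In both genes TLQP21 4 was the lowest of the 8 libraries and the other TLQP21 libraries were spread through the Saline range or just outside it. The log2 fold change of Mvd was -0.17 (SE 0.20), and 0.02 without TLQP21 4. Idi1, the isomerase of the isoprenoid unit, had 17.3, 18.3, 19.1 and 34.4 CPM in TLQP21, against 23.1, 19.6, 21.4 and 19.4 CPM in Saline. TLQP21 4 was highest, while the other TLQP21 libraries lay below every Saline library, and the log2 fold change turned to -0.20 without TLQP21 4, against 0.10 (SE 0.21) with it. Mvk, the mevalonate kinase whose promoter is shown above, averaged 15.8 ± 1.44 CPM in TLQP21 and 15.9 ± 1.84 CPM in Saline (SD, n = 4 each), with a 95% interval of the log2 fold change from -0.29 to 0.28; its log2 fold change of -0.0066 became 0.052 without TLQP21 4 and 0.07 without Saline 4. Fdps, the farnesyl diphosphate synthase, averaged 4.76 ± 0.96 CPM in TLQP21 and 4.37 ± 0.22 CPM in Saline, with a log2 fold change of 0.12 (SE 0.19) that was -0.016 without TLQP21 2.

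Of the 11 enzymes from squalene to cholesterol, 0 were called, and 10 had a log2 fold change above 0, with a median of 0.10. Msmo1, the sterol-C4-methyl oxidase, showed the largest value of the 29 at 0.30 (SE 0.18). It had 59.0, 69.1, 58.8 and 107.0 CPM in TLQP21 libraries 1 to 4, against 59.5, 56.8, 58.6 and 64.1 CPM in Saline libraries 1 to 4. TLQP21 4 was far above the Saline libraries, TLQP21 2 was just above them and TLQP21 1 and 3 were within their range; the log2 fold change without TLQP21 4 was 0.06. Fdft1, the squalene synthase, had 57.98, 71.5, 60.01 and 73.5 CPM in TLQP21, against 61.6, 55.3, 58.1 and 58.7 CPM in Saline. TLQP21 2 and 4 lay above every Saline library and TLQP21 1 and 3 did not, for a log2 fold change of 0.17 (SE 0.10, unadjusted p = 0.112). Its exons share 774 bases on the opposite strand with Ctsb, a far more abundant gene, and the strand setting of the counting is not given, so part of its reads may belong to Ctsb. Sqle, the squalene epoxidase, had 62.7, 66.8, 64.1 and 81.4 CPM in TLQP21, against 58.4, 49.5, 63.4 and 73.9 CPM in Saline. The TLQP21 libraries lay at the upper end of a shared range, with a log2 fold change of 0.16 (SE 0.13) that was 0.070 without TLQP21 4. Cyp51 had 215, 257, 233 and 302.5 CPM in TLQP21, against 254.5, 192, 227 and 240.5 CPM in Saline. It was highest in TLQP21 4 and lowest in Saline 2, with a log2 fold change of 0.14 (SE 0.13) that was 0.036 without TLQP21 4. Cyp51 shares 3.8% of its exonic bases with Akap9 on the opposite strand, and Tm7sf2 shares 12.1% with Vps51 on the same strand, so these counts are uncertain too. The remaining enzymes of these steps had smaller values: Dhcr7 0.12, Hsd17b7 0.10, Nsdhl 0.08, Sc5d 0.05, Lss and Ebp 0.02 each, and Tm7sf2 -0.04 on the log2 scale. Without TLQP21 4, Dhcr7 was at 0.018 and Hsd17b7 at 3e-04. Leaving out a library turned the sign of Nsdhl (-0.0094 without Saline 4), Ebp (-0.053 without TLQP21 2 and -0.012 without Saline 4), Sc5d (-0.014 without TLQP21 4 and -0.023 without Saline 3) and Tm7sf2 (0.11 without TLQP21 4 and 0.029 without Saline 2). Lss turned to between -0.0149 and -0.0028 without TLQP21 3, Saline 1 or Saline 2. Hsd17b7, whose promoter is shown above, averaged 18.04 ± 2.94 CPM in TLQP21 and 16.9 ± 1.25 CPM in Saline (SD, n = 4 each).

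The mean log2 CPM of the 17 sterol enzymes was 5.01 ± 0.06 in TLQP21 and 4.95 ± 0.03 in Saline (SD, n = 4 each), a difference of 0.05 that is about the size of the spread within the TLQP21 libraries. The libraries overlapped, with 4.93, 5.07, 4.97 and 5.04 in TLQP21, against 4.98, 4.92, 4.93 and 4.96 in Saline. The squalene and sterol steps differed by 0.09 and the isoprenoid steps by -0.02.

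The 4 SREBP regulators had 0 calls and a median log2 fold change of -0.09. Srebf1, which encodes SREBP1, had 123, 149, 158 and 117 CPM in TLQP21 libraries 1 to 4, against 128, 146, 176 and 189 CPM in Saline libraries 1 to 4. The 2 highest values were Saline libraries and the 2 lowest were TLQP21 libraries, with the middle shared, for a log2 fold change of -0.22 (SE 0.15) that was -0.14 without Saline 4. Srebf2, which encodes SREBP2, had 231, 225, 257 and 207 CPM in TLQP21, against 230.5, 208, 242 and 282 CPM in Saline, a log2 fold change of -0.07 (SE 0.11). Insig1, which holds SCAP back and is itself induced by SREBP, had 54.8, 53.1, 52.3 and 58.03 CPM in TLQP21, against 52.9, 57.3, 50.8 and 74.7 CPM in Saline. Saline 4 was the highest library for these 3 genes and for Scap, and the other libraries of both groups were mixed. The log2 fold change of Insig1 was -0.11 (SE 0.12), or 0.02 without Saline 4, and that of Srebf2 was 0.01 without Saline 4. Saline 4 also carried the largest share of acinar transcripts, 4.23% of counts over 10 markers, against 0.884 to 2.57% in TLQP21 libraries and 0.964 to 2.02% in the other Saline libraries. Its fibroblast markers were highest as well, at 1.07% of counts, against 0.597 to 0.849% in TLQP21 libraries and 0.582 to 0.632% in the other Saline libraries, and its epithelial share of 0.632% was the lowest. The part of these transcripts in the regulators' values was not tested. Scap averaged 59.0 ± 3.27 CPM in TLQP21 and 58.8 ± 5.32 CPM in Saline (SD, n = 4 each), with a 95% interval of the log2 fold change from -0.19 to 0.21, and its log2 fold change of 0.0056 was -0.0074 without TLQP21 1, -0.023 without TLQP21 3 and -0.046 without Saline 1.

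Of the 5 enzymes from acetyl-CoA to palmitate, 0 were called, with 3 above 0 and 2 below. Acss2, which makes acetyl-CoA from acetate, had the smallest unadjusted p of the 29 (0.102) and a log2 fold change of -0.26 (SE 0.14). It had 11.6, 13.2, 14.1 and 14.95 CPM in TLQP21 libraries 1 to 4, against 12.8, 17.96, 16.4 and 17.1 CPM in Saline libraries 1 to 4. All TLQP21 libraries lay below Saline 2, 3 and 4, but 3 of them lay above Saline 1. Acss2 shares 3.9% of its exonic bases with Gss and 1.9% with Ggt7, both on the opposite strand. Gss had 17938 reads over all libraries, against 3522 for Acss2. With the strand setting not given, part of the Acss2 reads may belong to these genes. Acly had 257, 266, 269 and 282 CPM in TLQP21, against 229, 242, 270.2 and 249 CPM in Saline, and only Saline 3 reached into the TLQP21 range; the log2 fold change was 0.12 (SE 0.08). Fasn, the fatty acid synthase, had 224.5, 269, 302 and 297 CPM in TLQP21, against 234, 227, 286 and 288 CPM in Saline. Its groups overlapped nearly throughout, with a log2 fold change of 0.08 (SE 0.13). Acaca, the acetyl-CoA carboxylase that commits carbon to fatty acids, had a log2 fold change of -0.07 (SE 0.14), and its lowest value of the 8, 29.9 CPM, was in TLQP21 1; the log2 fold change was 0.052 without that library. Me1 had 101, 108, 126 and 192 CPM in TLQP21, against 135, 125, 121 and 126 CPM in Saline. TLQP21 4 was the highest library and TLQP21 1 and 2 the lowest, so the log2 fold change of 0.06 (SE 0.18) became -0.19 without TLQP21 4.

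The 3 enzymes that lengthen and desaturate fatty acids had 0 calls. Scd1, a stearoyl-CoA desaturase abundant in liver and fat, had 62.9, 76.1, 77.3 and 147 CPM in TLQP21 libraries 1 to 4, against 78.05, 197, 69.3 and 77.05 CPM in Saline libraries 1 to 4. A library stood far above the rest in each group, TLQP21 4 and Saline 2, and the remaining 6 libraries lay between 62.9 and 78.05 CPM. The log2 fold change was -0.22 with a 95% interval from -1.05 to 0.62, the widest of the 29. It turned to 0.28 without Saline 2 and became -0.55 without TLQP21 4. Saline 2 also held hepatocyte transcripts. The 10 hepatocyte markers, 3 of which could not be tested, took 0.273% of counts in Saline 2. They took 0.0019 to 0.0024% in TLQP21 libraries and 0.0016 to 0.0033% in the other Saline libraries. The untested Fgb, a fibrinogen chain, was at 424 CPM in Saline 2 and had no read in TLQP21 1, TLQP21 3 and Saline 4. Hpx, the most abundant of them, had 666 CPM in Saline 2 and at most 1.29 CPM elsewhere. The 10 adipocyte markers, 1 of which could not be tested, took 0.0041 to 0.0137% of counts in TLQP21 libraries and 0.0053 to 0.0083% in Saline libraries. TLQP21 4 had the largest share, with Fabp4 at 59.4 CPM and Adipoq at 5.84 CPM. Lipe was lowest there, at 15.3 CPM, and Adrb3 was highest in Saline 2, whereas the other listed markers were highest in TLQP21 4. The next largest share, 0.0111%, was in TLQP21 1, the lowest library for Scd1. The part of liver or fat transcripts in the Scd1 values was not tested. Scd2 had 714, 896, 761.5 and 815 CPM in TLQP21, against 809, 688, 759 and 883 CPM in Saline. The groups overlapped throughout, with a log2 fold change of 0.02 (SE 0.11), and Saline 2 was the lowest library, opposite to its place for Scd1. The sign of Scd2 turned to -0.039 without TLQP21 2 and to -0.036 without Saline 2. Elovl6, the elongase of palmitate, had 48.1, 59.2, 53.6 and 71.9 CPM in TLQP21, against 55.8, 53.7, 65.6 and 52.9 CPM in Saline, with a log2 fold change of 0.03 (SE 0.13). It was highest in TLQP21 4 and lowest in TLQP21 1, and it turned to -0.09 without TLQP21 4 and to -0.0086 without Saline 4. The mean log2 CPM of the 8 fatty acid enzymes was 6.76 ± 0.23 in TLQP21 and 6.79 ± 0.08 in Saline (SD, n = 4 each). Their difference of -0.03 was 0.046 without TLQP21 1.

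**Figure D3:**
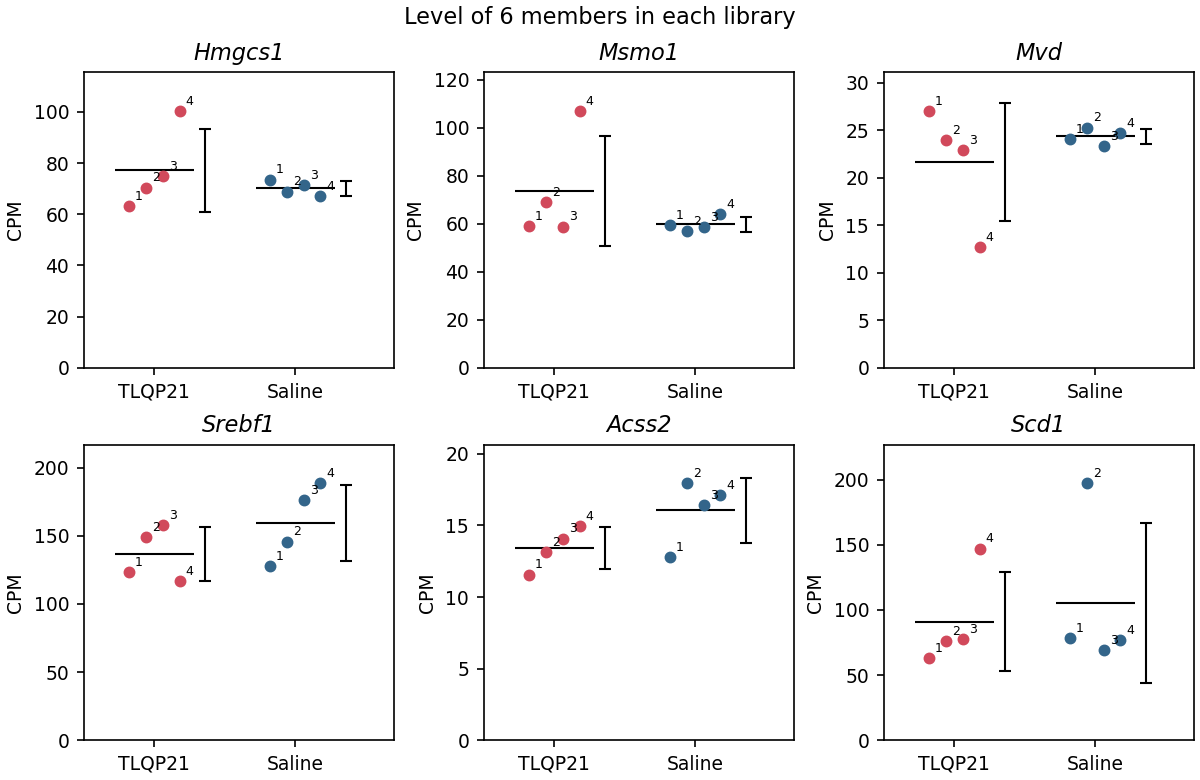
Level of 6 of the genes in each library, in CPM on axes from 0, with TLQP21 left and Saline right; numbers mark libraries, horizontal lines the mean and bars 1 SD (n = 4 per group). TLQP21 4 is the highest library in Hmgcs1 and Msmo1, the lowest in Mvd and the highest TLQP21 library in Scd1, where Saline 2 is at 197 CPM.

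The genes varied among libraries of the same treatment. The ratio of the highest to the lowest of the 8 libraries had a median of 1.495 over the 29 genes, ran from 1.20 for Lss to 3.13 for Scd1, and reached 2 only in Mvd and Scd1. The coefficient of variation had a median of 14.4% in TLQP21 and 9.94% in Saline and was larger in TLQP21 for 16 of the 29. TLQP21 4 was the highest library for 12 genes and the lowest for 8, or 69.0% of the 29 together, against 54.0% of all genes tested. TLQP21 1 was the lowest library for 9, or 31.0% of the 29, against 11.5% of all genes tested. In TLQP21 4 the sterol enzymes did not move together: relative to the other TLQP21 libraries, Idi1 was 1.89-fold, Msmo1 1.72-fold and Hmgcs1 1.45-fold, whereas Mvd was 0.52-fold and Tm7sf2, a sterol reductase, 0.60-fold.

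**Figure D4:**
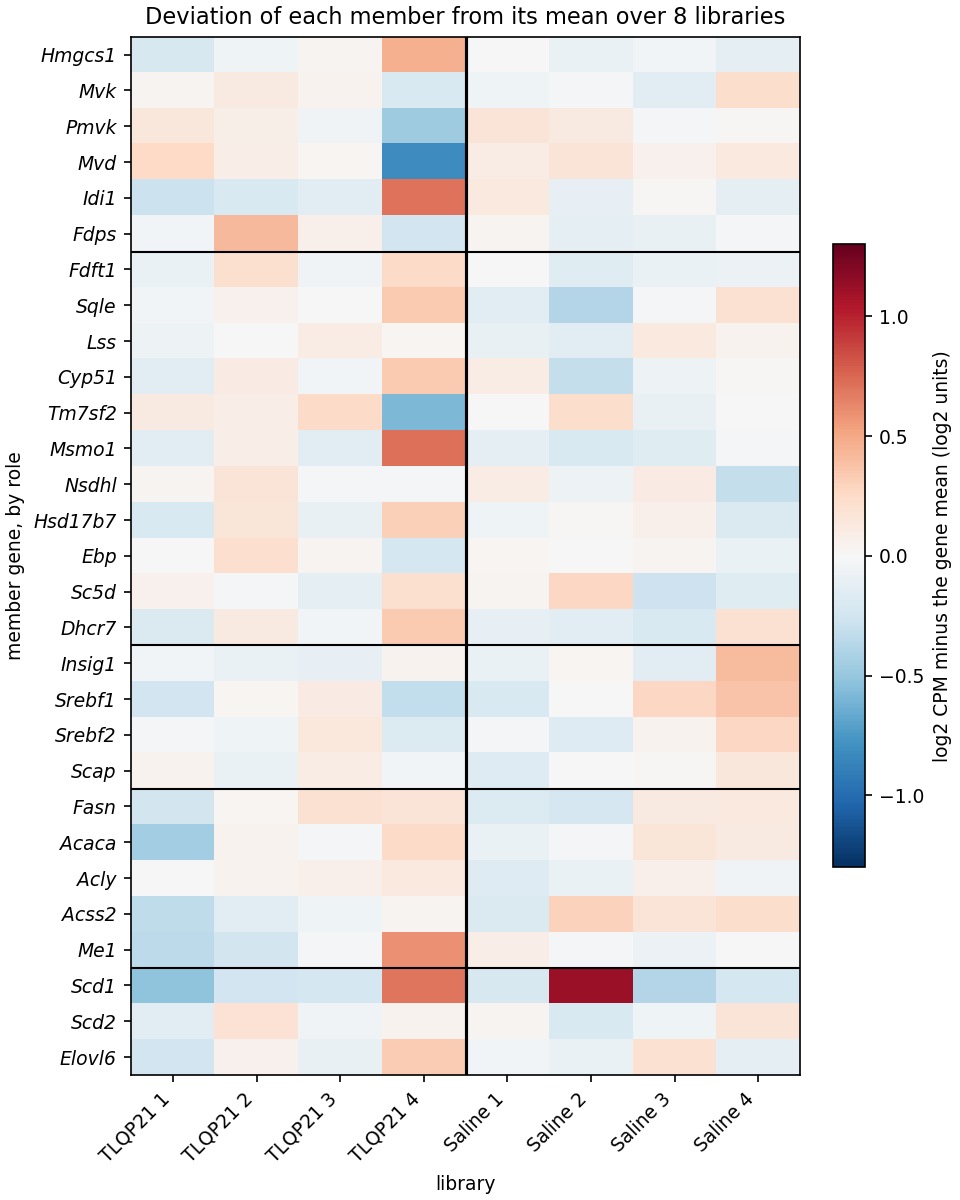
Log2 CPM of each of the 29 genes minus its mean over the 8 libraries, with TLQP21 libraries left of the vertical line and Saline libraries right of it; horizontal lines separate the roles. Scd1 in Saline 2 is the strongest value, and apart from it TLQP21 4 holds the strongest high values (Idi1, Msmo1, Scd1) and low values (Mvd, Tm7sf2).

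The pattern in TLQP21 4 went in part with the base composition of the transcripts. Its deviation from the mean of TLQP21 1 to 3 correlated with the GC content of the longest transcript across the 29 genes (Pearson r = -0.68, Spearman rho = -0.70), which come from the same library and are not independent, and rho was -0.54 across 18224 genes. A correlation across the 29 genes was not particular to TLQP21 4. Against the other libraries of the group, rho was 0.51, 0.46 and 0.735 in TLQP21 1, 2 and 3, where that mean includes TLQP21 4. In Saline 1 to 4 rho was -0.41, -0.09, -0.02 and 0.52. The deviations were spread less in the other 7 libraries, with an SD of 0.17 to 0.32. In TLQP21 4, 15 of the 16 genes with a GC content under 50% were above the other TLQP21 libraries, with a median deviation of 0.36 on the log2 scale. Of the 13 with 50% or more, 9 were below, with a median of -0.26. Over all genes the median deviation of TLQP21 4 was 0.33 in the 20% of genes with the lowest GC content and -0.46 in the 20% with the highest, while in the other 7 libraries these medians lay between -0.16 and 0.19. The spread (SD) of the deviations of the 29 genes in TLQP21 4 was 0.47, and 0.35 after the GC curve of each library was removed. After removal, 15 of the 16 genes under 50% GC and 8 of the 13 others lay above 0. The median deviation was then 0.27 in each set. Scd1 stayed at 0.98 and Idi1 at 0.67, and Tm7sf2 at -0.61. The cause of these remaining deviations was not tested. With the curves removed the test still called 0 of the 29, and log2 fold changes lay between -0.25 and 0.28.

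**Figure D5:**
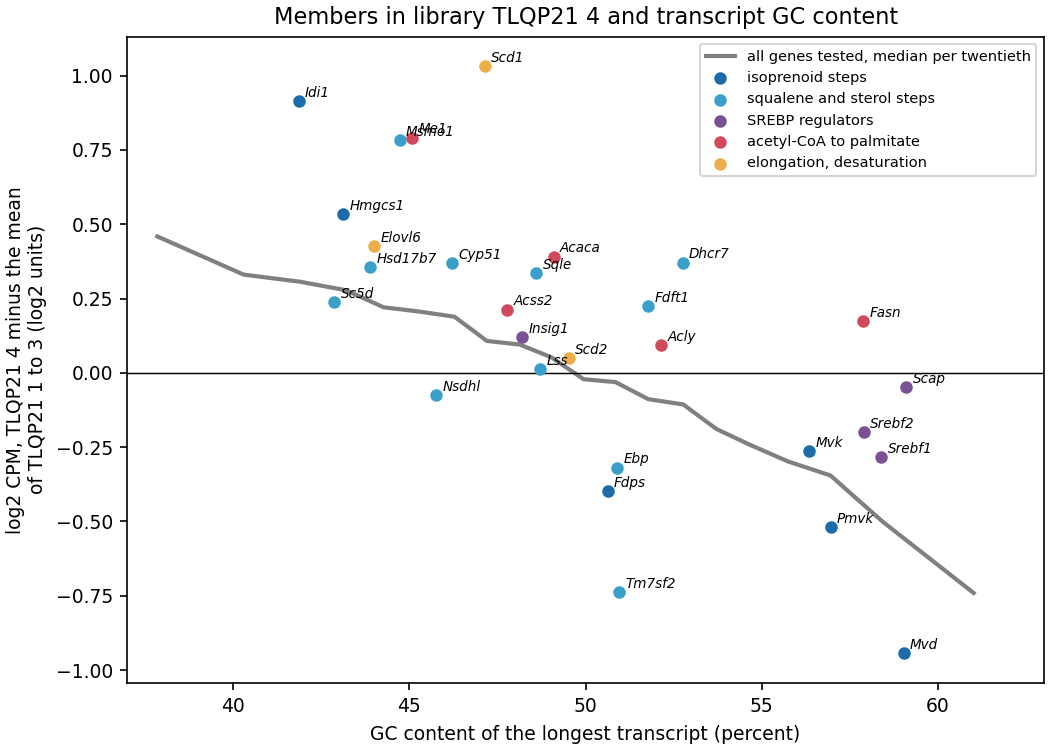
Deviation of each of the 29 genes in TLQP21 4 from the mean of TLQP21 1 to 3 (log2 CPM) against the GC content of its longest transcript in percent; the grey line is the median of all genes tested in 20 bins of GC content. AT-rich members such as Idi1, Msmo1 and Hmgcs1 lie above 0 and GC-rich members such as Mvd and Pmvk below.

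Within the libraries that carried Y-linked transcripts and those that carried Xist, the treatment ratio had opposite signs for 14 of the 29 genes. The share among all genes tested is not given here, so this count is not a result about the 29. The difference of the log2 ratio between the kinds, Y-linked minus Xist, was 1.60 for Scd1 (SE 0.60, unadjusted p = 0.0278) and 0.69 for Me1 (SE 0.26, unadjusted p = 0.031), and 2 of the 29 passed an unadjusted p under 0.05, against 4.80% of all genes. None passed after adjustment (edgeR adjusted p = 0.842 for both). Scd1 gave 0.62 among Y-linked libraries, which include TLQP21 4, and -0.99 among Xist libraries, which include Saline 2. Me1 gave 0.37 among Y-linked libraries and -0.32 among Xist libraries. The mean log2 CPM of the sterol enzymes differed between the treatments by 0.06 among Y-linked libraries and by 0.05 among Xist libraries.

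The 70 other genes of these pathways, in 5 lists, also had 0 calls, with 33 above 0 and 37 below and a median log2 fold change of -0.005. At an unadjusted p under 0.05, 0 were higher and 3 were lower, against 0.795% higher and 2.26% lower among all genes. Abca1, the cholesterol exporter, had 130.3, 112, 104.5 and 140.3 CPM in TLQP21 libraries 1 to 4, against 142, 147, 142 and 154 CPM in Saline libraries 1 to 4. Every TLQP21 library lay below every Saline library, the only such case among these 70 genes, where 1.66% of all genes tested showed no overlap, with a log2 fold change of -0.26 (SE 0.10, unadjusted p = 0.0313, edgeR adjusted p = 0.9999). Nr1h3, which encodes the sterol sensor LXR alpha, had 24.5, 23.7, 25.4 and 19.9 CPM in TLQP21, against 27.3, 30.4, 27.6 and 22.4 CPM in Saline, a log2 fold change of -0.21 (SE 0.13). Scarb1, the receptor that takes up cholesterol from high-density lipoprotein, had a log2 fold change of -0.17 (SE 0.13). Macrophages express Abca1 and Nr1h3, and 9 of the 10 macrophage markers also had a log2 fold change below 0, with a mean level of 6.97 ± 0.26 in TLQP21 and 7.21 ± 0.07 in Saline (mean log2 CPM, SD, n = 4 each) and 3 at an unadjusted p under 0.05. These markers took 0.139 to 0.224% of counts in TLQP21 libraries and 0.192 to 0.202% in Saline libraries, with the most abundant, C1qa, at 181 to 459 CPM in TLQP21 and 344 to 405 CPM in Saline, and their part in these values was not tested.

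In the list of other fatty acid enzymes, the remaining 2 low genes were those high in Saline 2. Thrsp, a lipogenic factor of liver and fat, had 0.855, 0.633, 0.897 and 0.618 CPM in TLQP21 libraries 1 to 4, against 1.60, 8.82, 0.652 and 1.10 CPM in Saline libraries 1 to 4, a log2 fold change of -2.02 (SE 0.75). Acsl1, which activates fatty acids, had 31.4, 27.9, 23.7 and 33.5 CPM in TLQP21, against 43.7, 61.4, 33.4 and 29.5 CPM in Saline, a log2 fold change of -0.53 (SE 0.22). Dgat2, which makes triglycerides, had 16.5, 12.2, 9.76 and 12.04 CPM in TLQP21, against 15.6, 32.5, 10.4 and 21.4 CPM in Saline, a log2 fold change of -0.66 (SE 0.31). Saline 2, the library with hepatocyte transcripts, was the highest for Thrsp, Acsl1 and Dgat2, and the part of these transcripts was not tested. Acacb, the mitochondrial acetyl-CoA carboxylase of the same list as Thrsp and Acsl1, had a log2 fold change of -0.66 (SE 0.37) and was also highest in Saline 2, with 8.47 CPM. Saline 4 was close at 7.83 CPM, while Saline 1 and 3 were at 2.35 and 3.95 CPM. Among the genes of SREBP processing and turnover, the ubiquitin ligase component Fbxw7 had 0.13 (SE 0.10) and Erlin2 had 0.12 (SE 0.10). Among the isoprenoid branches, the synthase Ggps1 had 0.18 (SE 0.14), with 55.2 CPM in TLQP21 4 and 33.1 to 41.05 CPM in the other 7 libraries. The prenyltransferase genes Dhdds and Fnta had -0.10 and 0.10. Among the genes of triglyceride and phospholipid synthesis, the phospholipid acyltransferase Lpcat3 had 0.16 (SE 0.10) and the phosphatidate phosphatase Lpin2 -0.10 (SE 0.08), all as log2 fold changes.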

How the data were processed

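Gene expression was measured by RNA sequencing in 8 libraries, grouped by the sample titles. The deposited table holds raw counts of reads for each gene. The submitters' processing notes name HISAT2 2.0.5, DESeq2 1.32.0, featureCounts 1.5.0-p3 and build GRCm38; the annotation release and strand setting are not given in the sources used here. From these counts, edgeR 4.0.16 in R 4.3.3 (filter on low counts by group, TMM scaling, quasi-likelihood test, no covariates) compared TLQP21 with Saline, with Benjamini-Hochberg adjustment over all 18238 genes tested and a threshold of 0.05. CPM are TMM-scaled, and mean log2 CPM used a prior count of 2. DESeq2 1.42.0 and limma 3.58.1 (voom) were alternatives. Separate animals are not stated in the labels, so the p-values rest on a spread that may be technical in part. Chi-square per degree of freedom was at least 19.0 for every pair of libraries, so no pair differed by the sampling of reads alone. Whether separate libraries came from the same tumour cannot be told from this value. GC content and exon overlaps came from GENCODE M21, in which 26 of the 29 genes had the deposited coordinates.

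The members and lists were chosen with earlier results of these data known. Values in every library are given, per role, for the 3 members with the smallest unadjusted p and the member with the highest TPM, and for members in which a library stood apart; per other list the 3 smallest unadjusted p were named, and per marker list the most abundant gene. A gene that the rule names is not reported here. Other values were added after they were seen. The GC correction was chosen after seeing the data.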

Additional observations from a re-analysis of the deposited data

Results flagged for a closer look

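A library of a group stood apart from the other 3 in 4 of 96 groups of 4 values examined; chance gives about 1 in 20 groups. Idi1 was at 34.4 CPM in TLQP21 4, against 17.3 to 19.1 CPM in the other TLQP21 libraries. Scd1 was at 197 CPM in Saline 2, against 69.3 to 78.05 CPM in the other Saline libraries. The mean log2 CPM of the 3 elongation and desaturation genes was 7.60 in Saline 2, against 7.24 to 7.26 in the other Saline libraries, and it contains Scd1. The mean log2 CPM of the 7 tested hepatocyte markers was 7.82 in Saline 2, against 0.55 to 1.06 in the other Saline libraries.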

How the results depend on the processing

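No member was called under the alternatives run: other scalings, filters and tools, a replicate block, the library kind as a covariate, each library left out, TLQP21 4 and Saline 2 removed together, and a GC correction. Genes called numbered 0 with edgeR (558 at an unadjusted p under 0.05), 4 with DESeq2 and 1 with voom and sample weights, none of them a member. At an unadjusted p under 0.05, voom gave 2 of the 29 members, both higher, against 1932 of all 18238 genes tested. Leaving out TLQP21 1, TLQP21 4 or Saline 1 gave 1 member each, against 1037 of 18530, 574 of 18532 and 573 of 18518 genes. The mean log2 CPM difference of the sterol members was 0.055, and 0.12 as log2 TPM; with a library left out and the rest scaled anew it ran from 0.032 to 0.067, and that of the fatty acid members from -0.14 to 0.046. With the scaling of all 8 libraries kept, a setting chosen after seeing the data, these ranges were 0.032 to 0.079 and -0.13 to 0.060. Direction held in every alternative for 7 members and turned in at least 1 for 22; the cause was not tested. Depth limits mainly Fdps, with 118 reads in its lowest library.

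With a library left out, log2 fold changes ran from -0.019 to 0.22 for Hmgcs1, -0.054 to 0.070 for Mvk, -0.29 to 0.015 for Mvd, -0.20 to 0.20 for Idi1, -0.016 to 0.21 for Fdps, -0.015 to 0.076 for Lss, -0.13 to 0.11 for Tm7sf2, -0.0094 to 0.13 for Nsdhl, -0.053 to 0.091 for Ebp, -0.023 to 0.16 for Sc5d, -0.17 to 0.018 for Insig1, -0.13 to 0.014 for Srebf2, -0.046 to 0.053 for Scap, -0.18 to 0.052 for Acaca, -0.19 to 0.16 for Me1, -0.55 to 0.28 for Scd1, -0.039 to 0.078 for Scd2 and -0.090 to 0.11 for Elovl6. When TLQP21 4 and Saline 2 were removed together, the values that turned were Hmgcs1 -0.031, Mvk 0.041, Mvd 0.031, Idi1 -0.23, Sqle -0.022, Lss -0.024, Cyp51 -0.042, Tm7sf2 0.18, Dhcr7 -0.012, Fasn -0.029, Me1 -0.20, Scd2 -0.053 and Elovl6 -0.12. Under voom they were Hmgcs1 -7e-04, Mvk 0.11, Idi1 -0.18, Tm7sf2 0.020, Sc5d -0.079, Srebf2 0.0094 and Me1 -0.21. The voom sample weights were 0.187 for TLQP21 4, 4.30 for TLQP21 2 and 0.59 to 1.82 for the rest. TLQP21 4 thus counted least in these values. Upper quartile scaling gave Mvk 0.0083, and the GC correction Mvk 0.087 and Srebf2 0.049.

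Same-numbered libraries deviated together with correlations from -0.053 to 0.27, and those with other numbers from -0.43 to 0.30, so the replicate numbers were not taken as pairing. With a replicate block, 0 genes and 0 members were called, 549 genes had an unadjusted p under 0.05, and no member turned. The sterol difference of 0.055 is the same by construction, because averaging same-number differences returns the difference of the group means.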
